A study of Mus musculus with 18 samples.

Results

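The genes examined encode the proteasome, the protease complex that degrades ubiquitin-tagged proteins, and were followed across 5 groups of sorted brain macrophages. Members were taken by symbol, as every gene of the count table whose name begins with Psma, Psmb, Psmc, Psmd, Psme or Psmf and a number, without Psmb8, Psmb9 and pseudogene names. Of 13043 genes, 43 matched. Psmc3ip matched by its letters alone: it encodes a meiotic recombination factor and no subunit, and it stayed in the counts as a member. The filter on low counts left 42 members and 10597 genes in all. The member left out was Psma8, which encodes a testis-type alpha subunit and had 0 to 8 counts per library.

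The core particle is a stack of rings of alpha subunits, which form the gate, and beta subunits, 3 of which (Psmb5, Psmb6 and Psmb7) carry the constitutive active sites. The regulatory particle caps it with a base of ATPases that unfold the substrate (Psmc genes) and a lid that removes ubiquitin. In immune cells and under interferon-gamma, inducible beta subunits (Psmb8, Psmb9 and Psmb10) can replace the constitutive ones, and the activator of Psme1 and Psme2 can replace the cap, which changes the peptides made for MHC class I.

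All groups came from irradiated wild type C57BL6/C recipients that had been given marrow from donors with the alleles Ms4a3-Cre, R26-TdTomato and Cx3cr1-gfp 32 weeks earlier. Ms4a3-Cre acts in granulocyte-monocyte progenitors, so the study's design takes GFP with TdTomato as monocyte-derived, GFP alone as HSC-derived (from haematopoietic stem cells by another route) and no colour as host. There were 4 libraries of microglia from each source (host, monocyte-derived, HSC-derived). Of leptomeningeal macrophages there were 4 monocyte-derived and 2 HSC-derived libraries. Cells were prepared with actinomycin D, a transcription inhibitor, and sorted, and poly(A) RNA was counted by MARS-seq, which reads transcript ends and counts molecules by unique molecular identifiers (UMIs). Cells that escaped the label cannot be told apart from HSC-derived cells, and nothing says whether each replicate was its own mouse, so p-values measure only the spread between these samples.

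Total counts ran from 154727 to 2440234 per library, and member counts from 734 to 12189. HSC-derived microglia replicates 3 and 4 and HSC-derived leptomeningeal replicate 2 had fewer than 400000 counts; they are called shallow here. In them ribosomal protein transcripts made up 12.3% to 17.8% of counts, and a count of 3 corresponded to 11.7 to 23.1 CPM, counts per 1000000 counts after TMM (trimmed mean of M-values) scaling between libraries. The 5 microglial markers summed to 13200 to 15000 CPM in host microglia and to 5530 to 6780 in donor-derived microglia. They summed to 1170 to 2450 CPM in leptomeningeal libraries, in which 5 border macrophage markers reached 4190 to 8680 CPM against 1040 to 1570 in donor-derived microglia and 31.2 to 35.5 in host microglia.

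Promoter sequence was given for 36 of the 43 members by RefSeq (GRCm38.p6). The windows not matched were those of Psma8, Psmb1, Psmb2, Psmb7, Psmc3, Psmd3 and Psmd7. The 250 bases before each start were searched on both strands for 4 motifs. Shown are Psmb5 (chr14:54618023-54618245, minus strand) and Psmb6 (chr11:70525107-70525356, plus strand), whose products carry active sites, Psmb3 (chr11:97703184-97703398, plus strand), which encodes a non-catalytic beta subunit, and Psmd4 (chr3:95042615-95042864, minus strand), which encodes a ubiquitin receptor. They are the core particle and receptor genes whose windows held the antioxidant or the interferon-stimulated motif. Capitals mark these motifs and CCAAT, and bases of annotated exons at the end of the windows of Psmb5 and Psmb3 are left out.
Psmb5: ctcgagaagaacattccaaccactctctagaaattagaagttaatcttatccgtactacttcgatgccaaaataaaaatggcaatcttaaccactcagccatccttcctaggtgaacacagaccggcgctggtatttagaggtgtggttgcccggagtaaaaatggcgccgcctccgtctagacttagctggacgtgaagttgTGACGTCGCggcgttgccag
Psmb6: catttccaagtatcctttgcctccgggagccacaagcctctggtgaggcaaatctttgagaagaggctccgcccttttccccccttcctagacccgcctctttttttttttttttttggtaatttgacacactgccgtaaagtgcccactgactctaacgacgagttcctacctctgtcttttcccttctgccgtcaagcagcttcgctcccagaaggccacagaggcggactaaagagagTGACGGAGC
Psmb3: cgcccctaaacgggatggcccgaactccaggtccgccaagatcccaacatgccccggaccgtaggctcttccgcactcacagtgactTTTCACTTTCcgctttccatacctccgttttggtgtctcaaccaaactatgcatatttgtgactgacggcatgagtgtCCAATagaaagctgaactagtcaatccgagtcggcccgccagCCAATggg
Psmd4: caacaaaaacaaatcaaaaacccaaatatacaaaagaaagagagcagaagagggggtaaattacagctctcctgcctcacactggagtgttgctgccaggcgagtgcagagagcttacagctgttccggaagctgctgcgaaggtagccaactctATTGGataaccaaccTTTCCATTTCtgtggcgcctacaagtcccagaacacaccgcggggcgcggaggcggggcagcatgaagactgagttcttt

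The core of the antioxidant element, TGACNNNGC, was found in 12.8% of the 39 member windows and in 10.2% of all 32851 windows of that length. It stood in the windows of Psmb5, Psmb6, Psmc6, Psmd12 and Psmd9. The interferon-stimulated motif GAAANNGAAA was found in 7.69% of member windows (those of Psmb3, Psmd4 and Psmd9) against 2.98% of all windows. CCAAT stood in 33.3% against 33.8%, and the gamma-activated motif TTCNNNGAA in 0 member windows against 7.02%. No 2 of the 4 motifs overlap in the windows printed. A match is a string of letters and not a bound site.

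Summed over the 43 members, proteasome transcripts had their lowest group mean in monocyte-derived microglia. On the TMM scale they were highest in leptomeningeal macrophages, and with plain library sizes host microglia came first, at 4960 ± 137 CPM (SD, n = 4) against 4860 ± 192 in monocyte-derived leptomeningeal macrophages and 4140 ± 75.5 in monocyte-derived microglia. No test was made on the sum. As a share of each library's counts, without TMM, members made up 0.404% to 0.42% in monocyte-derived microglia. In HSC-derived microglia replicates 1 to 4 the share was 0.415%, 0.44%, 0.449% and 0.412%, so these groups overlapped. On the TMM scale the sum was 4393, 4099, 4279 and 4370 CPM in host microglia replicates 1 to 4, and 3529, 3588, 3828 and 3707 CPM in monocyte-derived microglia. These groups did not overlap. In monocyte-derived leptomeningeal macrophages the sum was 4712, 5955, 5552 and 5151 CPM, above every host and monocyte-derived microglia library. HSC-derived microglia had 4065 and 4193 CPM in the deeper libraries and 6097 and 5123 CPM in the shallow ones, and HSC-derived leptomeningeal macrophages 4971 CPM in the deeper and 5653 CPM in the shallow one. The group means were 3660 ± 132 (SD, n = 4) CPM in monocyte-derived microglia, 4290 ± 134 in host microglia, 4870 ± 945 in HSC-derived microglia, 5310 ± 483 (n = 2) in HSC-derived and 5340 ± 533 in monocyte-derived leptomeningeal macrophages. The upper 3 groups in this order overlapped. Over the deeper libraries alone, HSC-derived microglia stood at 4130 ± 90.3 CPM (n = 2), between host and monocyte-derived microglia. In bulk samples, fewer cells of a type and less RNA per cell cannot be told apart.

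**Figure D1:**
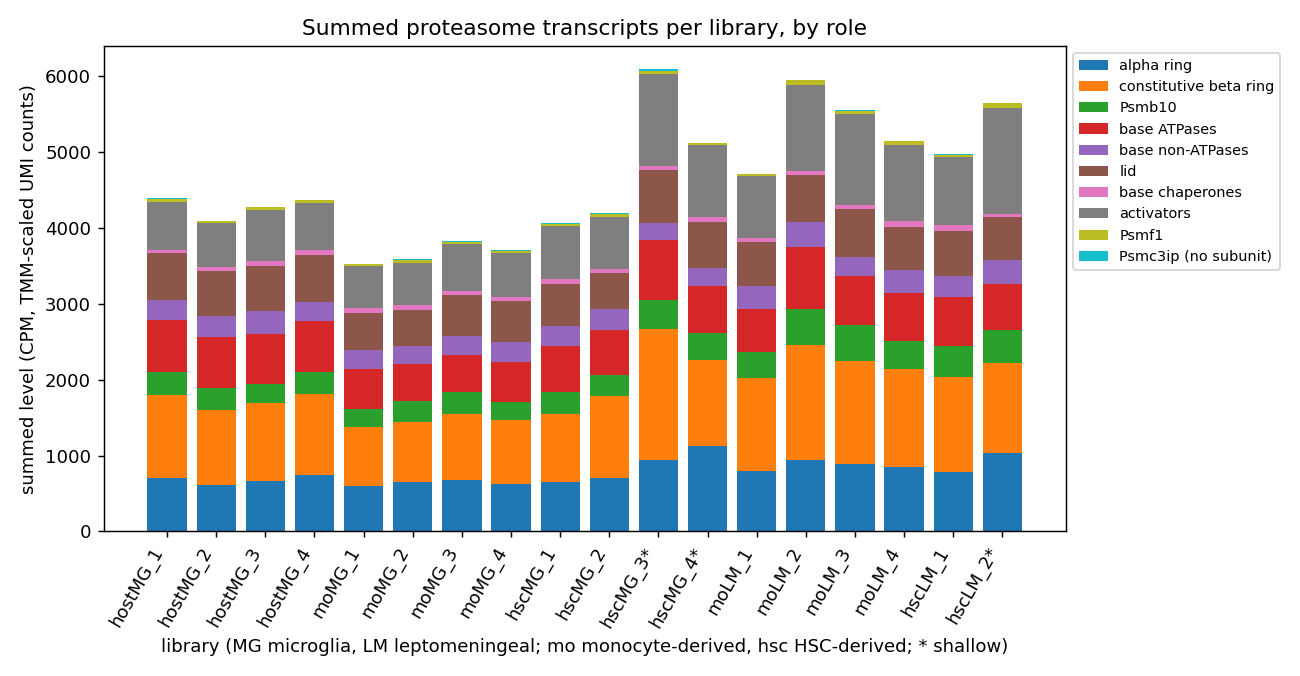
Summed level of the members in each of the 18 libraries, in CPM (y axis, from 0), stacked by role; asterisks mark the 3 shallow libraries. The monocyte-derived microglia libraries reach 3529 to 3828 CPM, and the monocyte-derived leptomeningeal libraries 4712 to 5955 CPM; with plain library sizes in place of TMM the host mean is the highest.

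Labelled donor cells of the parenchyma were set against its resident cells by comparing monocyte-derived with host microglia. Of the 6 base ATPases 4 fell, among them Psmc2 at 108 ± 15 CPM against 182 ± 9.43 and Psmc3 at 116 ± 8.19 against 177 ± 5.4 (n = 4 each). In the core, 2 of 15 tested genes fell, Psmb4 and Psmb6. The activators moved apart, with Psme4 higher and Psme2 lower. Of the 42 members, 9 were lower and 1 higher by edgeR's quasi-likelihood test (Benjamini-Hochberg adjusted over all tested genes, threshold 0.05), against 15.1% lower and 15.1% higher among all genes. The median log2 change was -0.16 over the members and 0.01 over all genes.

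Psmc2, an ATPase of the base, had 194, 174, 185 and 175 CPM in host replicates 1 to 4 and 113, 104, 89.7 and 125 CPM in monocyte-derived microglia. Every host library was above every monocyte-derived one (log2 change -0.75, SE 0.14, edgeR adjusted p = 9.76e-05). Psmc3, another base ATPase, had 179, 182, 170 and 177 CPM against 105, 120, 114 and 124 CPM, again without overlap (-0.61, SE 0.16, edgeR adjusted p = 0.00238). The exons of Psmc3 overlap those of Slc39a13 on the opposite strand, and the use of strand in the counting is not given in the sources used here. Psmc1 and Psmc5, also base ATPases, changed by -0.38 and -0.54, and neither overlapped between the groups. Psmc4 (-0.14) and Psmc6 (0.31) did not pass the test.

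In the core particle, Psmb4, a non-catalytic beta subunit, had 314, 327, 329 and 297 CPM in host and 201, 192, 202 and 207 CPM in monocyte-derived microglia. The groups stood far apart relative to their spread (log2 change -0.66, SE 0.17, edgeR adjusted p = 0.00304). Psmb6, whose product has the caspase-like activity, had 195, 168, 192 and 189 CPM against 112, 128, 144 and 139 CPM, without overlap (-0.51, SE 0.17, edgeR adjusted p = 0.0176). The other catalytic subunits did not pass: Psmb5 (chymotrypsin-like) had a log2 change of -0.07, Psmb7 (trypsin-like) of 0.12 and the inducible Psmb10 of -0.14. None of the 7 alpha subunits tested was called, and their log2 changes ran from -0.32 to 0.17.

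In the lid, Psmd6 and Psmd8, both structural subunits, fell by 0.46 and 0.39 on the log2 scale. The other 6 lid genes, among them the deubiquitinase Psmd14 (-0.21), did not pass the test. The 3 non-ATPase base genes did not pass either, including the ubiquitin receptor Psmd4 (-0.21). The base chaperones Psmd5, Psmd9 and Psmd10, which help to assemble the ATPase ring, had log2 changes of -0.12, 0.11 and 0.16 and were not called.

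Psme4, the activator also known as PA200, was the member called higher. Its level in monocyte-derived microglia was 83.6, 81.9, 77.8 and 78.2 CPM, against 47.2, 43.7, 42.5 and 48.2 CPM in host microglia. The lowest monocyte-derived library was well above the highest host library (log2 change 0.83, SE 0.15, edgeR adjusted p = 5.62e-05). Psme2, which encodes the beta chain of the activator PA28, had 180, 195, 212 and 191 CPM in host and 119, 102, 154 and 112 CPM in monocyte-derived microglia (-0.68, SE 0.24, edgeR adjusted p = 0.0372). Psme1, the alpha chain, stood at 320 ± 22.8 against 320 ± 16.4 CPM and was not called. Psme3, the nuclear PA28 chain (-0.15), and Psmf1, an inhibitor of the core particle (-0.17), were not called.

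Psme2 has an intronless near-copy among the members, Psme2b, whose transcript matches 2 annotated Psme2 transcripts at 94.5% and 96.2% of bases, so counts may be split between them and both values are uncertain. Psme2b itself had a log2 change of -0.38 and was not called. Leaving out 1 of the 8 libraries left 4 to 7 members and 2587 to 2864 of all genes called: 4 without host replicate 3, 5 without host replicate 4, and 6 without host replicate 1 or monocyte-derived replicate 1 or 2. Psmb4, Psmc2, Psmc3 and Psme4 were called in every one of these fits. Psmb6 was lost without host replicate 1 or 3 or monocyte-derived replicate 1, and Psmc5 without host replicate 3 or 4 or monocyte-derived replicate 3. Psmc1 held only without monocyte-derived replicate 1, Psmd8 and Psme2 only without monocyte-derived replicate 3, and Psmd6 only without host replicate 2 or monocyte-derived replicate 4. Psmd6 was also lost by DESeq2, Psme2 with RLE factors (DESeq2's scaling) in edgeR, and both with a stricter filter on low counts. Without the shallow libraries, which belong to other groups, Psmc6 was called higher (0.33, edgeR adjusted p = 0.0319) and Psma7 lower (-0.3, edgeR adjusted p = 0.0295). Markers of other cells moved with the comparison: the 3 choroid plexus markers summed to 2070 to 3510 CPM in host and 5.6 to 161 CPM in monocyte-derived libraries, where Folr1 was at 0. Slc1a3, the astrocyte marker of the list in the table, went from 156 to 205 CPM in host to 18.4 to 23.2 CPM. Aqp4 and Gfap, also on that list, were not among the counted genes in any group. The 4 monocyte markers went from 9.38 to 15 CPM in host, with Chil3 at 0, to 54.8 to 89.4 CPM, and the 7 T and NK cell markers from 14.6 to 24.8 to 72.2 to 73.7 CPM. The 3 neutrophil markers were all at 0 in host and summed to 8.41 to 50.3 CPM in monocyte-derived libraries. Their part in the result was not tested.

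**Figure D2:**
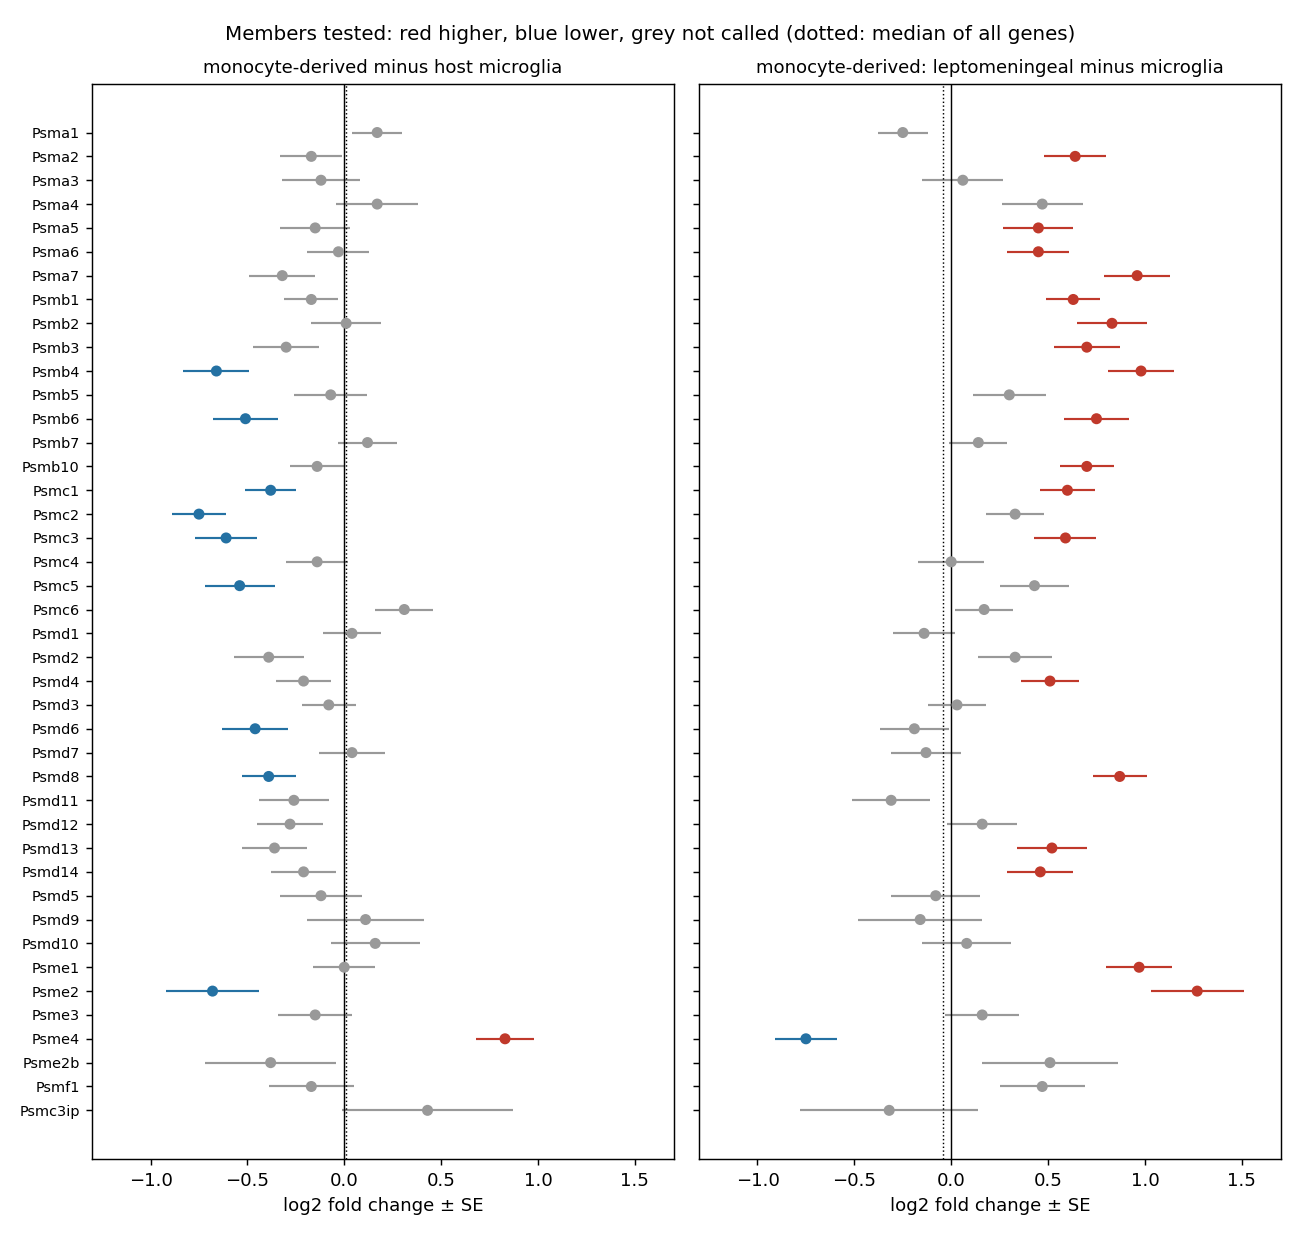
Log2 fold change ± SE (x axis) of the 42 tested members (y axis, ordered by role) for monocyte-derived minus host microglia (left) and monocyte-derived leptomeningeal macrophages minus microglia (right); the dotted line is the median of all tested genes. On the left 9 members are blue (lower) and 1 red (higher), and on the right 18 are red and 1 blue, which is Psme4.

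HSC-derived microglia, donor cells without the Ms4a3 label, were compared with host microglia in the same way. Here no member fell and 5 of 42 rose, against 16.3% higher and 13.1% lower among all genes. These were Psma4, Psmb7, Psme1, Psme4 and Psmc3ip. The median log2 change was 0.1 over the members and 0 over all genes. Psme4 had 66.6, 86.6, 56.4 and 50.9 CPM, of which the last pair is shallow, each above the host range of 42.5 to 48.2 CPM (log2 change 0.62, SE 0.18, edgeR adjusted p = 0.0105).

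Psmb7 had 83.6, 113, 143 and 110 CPM in HSC-derived microglia and 77.3, 65.9, 60.7 and 85.7 CPM in host microglia. The ranges met between the lowest HSC-derived and the highest host library (0.58, SE 0.17, edgeR adjusted p = 0.00759). Its exons overlap Nek6 on the opposite strand. Psma4, an alpha ring gene, had 52.4, 38.5, 92.2 and 93.9 CPM against 28.6, 21.8, 36.2 and 35.5 CPM, and the shallow pair was the highest (0.97, SE 0.25, edgeR adjusted p = 0.00311). Psme1 had 390, 375, 671 and 481 CPM against 328, 287, 341 and 323 CPM, again with the shallow pair on top (0.55, SE 0.17, edgeR adjusted p = 0.0132). Its exons overlap Emc9 on the opposite strand. Psmc3ip had a mean of 13.6 ± 8.31 CPM against 4.98 ± 2.91 (1.34, SE 0.51, edgeR adjusted p = 0.0436), and its exons overlap Mlx on the opposite strand. Psme1 was not called without HSC-derived replicate 3, Psme4 without HSC-derived replicate 2, and Psmc3ip without host replicate 2, 3 or 4 or HSC-derived replicate 1 or 3. Psmc3ip was also lost with the replicate block (edgeR adjusted p = 0.0748). Of the other fixed members, Psmb5 (0.56, edgeR adjusted p = 0.0507), Psmb6 (0.42), Psmb10 (0.19), Psme2 (0.29), Psme3 (-0.06), Psmf1 (-0.29), Psmd14 (0), Psmd4 (0.02), Psmd5 (-0.31), Psmd9 (-0.22) and Psmd10 (0.3) were not called.

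The direction of this count depended on the libraries kept and on the scaling. Without the shallow libraries, which left 2 of HSC-derived microglia, 3 members were higher (Psmb7, Psmc6 and Psme4). Another 3 were lower (Psma7, Psmc3 and Psmd6), against 13.8% higher and 11.9% lower among all genes. Psma4 (edgeR adjusted p = 0.0867) and Psme1 were then not called, while Psme4 had a log2 change of 0.77 and Psmb7 of 0.46. With plain library sizes in place of TMM, the median of all genes moved to -0.28, and 11.2% of all genes were higher and 24.0% lower. The members split into 1 higher, Psma4, and 8 lower. Psmb7, Psme1, Psme4 and Psmc3ip were not called with this scaling. Other cell types' markers also differed here. The 3 choroid plexus markers summed to 13.7 to 482 CPM and Slc1a3 to 13.7 to 22.7 CPM in HSC-derived microglia, below every host library. The 4 monocyte markers summed to 97.8 to 133 CPM against 9.38 to 15 in host, with Chil3 at 0 in both, the 2 oligodendrocyte markers to 41.1 to 205 CPM against 27.5 to 32.3 in host, and the 3 cell cycle markers to 15.4 to 31.2 against 4.69 to 7.72 CPM. Ribosomal protein transcripts made up 7.9% to 12.9% of counts against 4.57% to 5.4%. Their part in the result was not tested.

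Between the donor-derived groups of microglia, 1 of 42 members was called: Psmb6 was lower in monocyte-derived than in HSC-derived cells. The shares among all genes were 0.123% higher and 1.76% lower. Psmb6 had 112, 128, 144 and 139 CPM in monocyte-derived and 177, 187, 400 and 294 CPM in HSC-derived microglia. The groups did not overlap, and the shallow pair was the highest (log2 change -0.93, SE 0.18, edgeR adjusted p = 0.00534). Without the shallow libraries its change was not called and 0 members were, against 0.459% of all genes. The median over the members was -0.29 with all libraries and -0.11 without the shallow ones. DESeq2 called 6 members, against 5.21% of all genes. A replicate block in the fit called 2 members, for which no share over all genes is given here. Without HSC-derived replicate 1 the count was 7 members, and 555 of all genes were called, against 200 with every library. Without HSC-derived replicate 2 it was 6 members. Leaving out 1 library left between 31 and 555 of all genes called in this comparison. With plain library sizes 1 member was called lower, and the split among all genes moved to 0.547% higher and 0.623% lower.

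**Figure D3:**
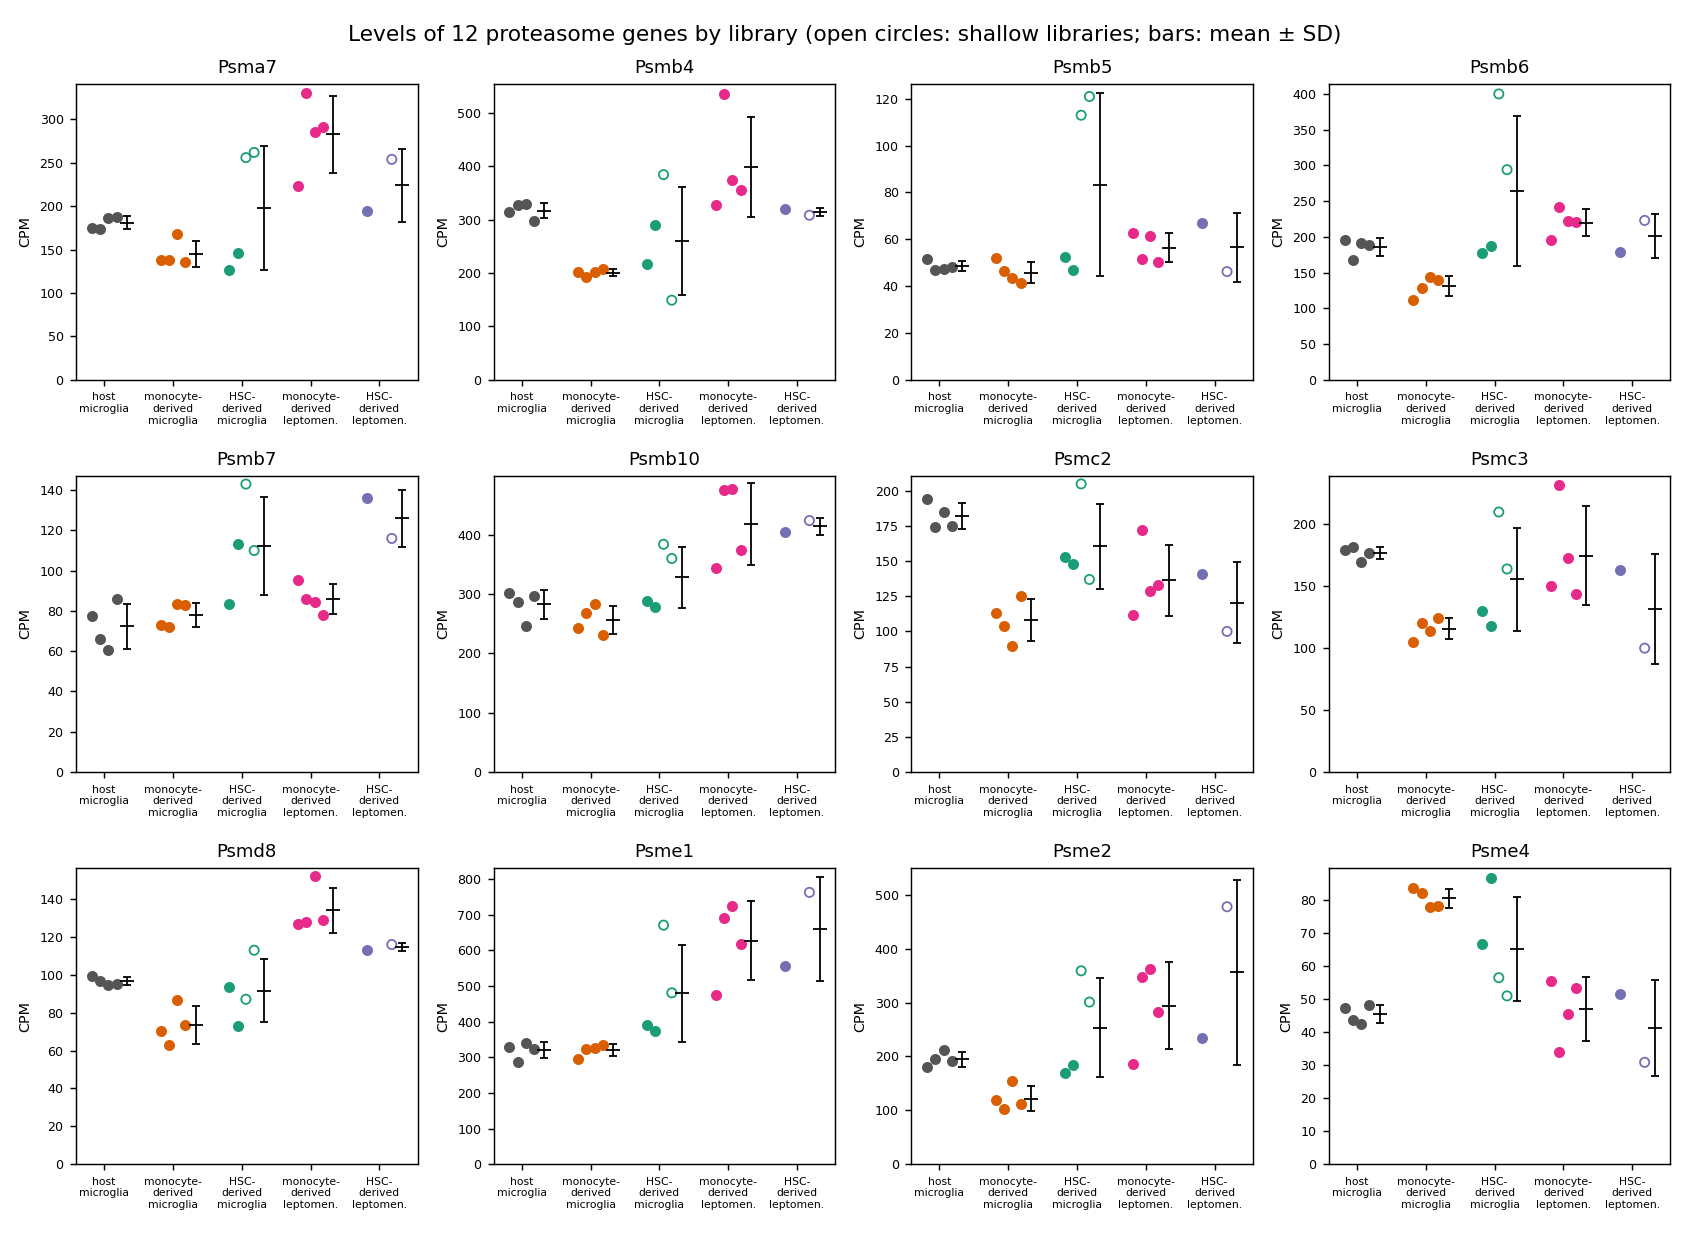
Levels in CPM (y axes, from 0) of 12 members in each library of the 5 groups; open circles are shallow libraries, and black bars show the mean ± SD of each group. Psmc2, Psmc3 and Psmb4 lie lower in monocyte-derived than in host microglia, and Psme4 lies higher in monocyte-derived microglia (77.8 to 83.6 CPM) than in host microglia (42.5 to 48.2 CPM) or monocyte-derived leptomeningeal macrophages (34 to 55.5 CPM).

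The comparison of monocyte-derived leptomeningeal macrophages with monocyte-derived microglia asked whether labelled donor cells differ by compartment. In the leptomeninges 18 of 42 members rose and 1 fell (9 and 4 with plain library sizes), against 19.0% higher and 16.3% lower among all genes. The share of members that rose was above that of all genes. In the core particle 10 of 15 genes rose, in the regulatory particle 6 of 17. The largest increase among the called members was that of Psme2, and the member that fell was Psme4. The median log2 change was 0.44 over the members and -0.04 over all genes.

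In the alpha ring, Psma7 had 138, 138, 168 and 136 CPM in microglia and 223, 331, 286 and 291 CPM in leptomeningeal macrophages. The groups were clearly apart (log2 change 0.96, SE 0.17, edgeR adjusted p = 2.01e-05). Psma2, Psma5 and Psma6 rose too, by 0.64, 0.45 and 0.45, while Psma1 (-0.25), Psma3 (0.06) and Psma4 (0.47) were not called.

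In the beta ring, Psmb4 had 327, 535, 374 and 355 CPM in leptomeningeal macrophages, against 192 to 207 CPM in microglia. The lowest leptomeningeal library was above the highest microglial one (0.98, SE 0.17, edgeR adjusted p = 2.51e-05). The catalytic Psmb6 had 195, 242, 222 and 221 CPM against 112 to 144 CPM, without overlap (0.75, SE 0.17, edgeR adjusted p = 0.000535). Psmb1 (0.63), Psmb2 (0.83) and Psmb3 (0.7), all non-catalytic, rose as well, and the catalytic Psmb5 (0.3) and Psmb7 (0.14) were not called. The inducible catalytic subunit Psmb10 had 344, 475, 478 and 374 CPM against 243, 268, 284 and 231 CPM (0.7, SE 0.14, edgeR adjusted p = 0.00021). All 4 leptomeningeal libraries were above the microglial ones.

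In the regulatory particle, the lid gene Psmd8 had 127, 128, 152 and 129 CPM in leptomeningeal macrophages and 70.3, 62.9, 86.9 and 73.4 CPM in microglia. It had the smallest p of the members (0.87, SE 0.14, edgeR adjusted p = 6.35e-06), and the groups did not overlap. The deubiquitinase gene Psmd14 (0.46), the lid gene Psmd13 (0.52) and the ubiquitin receptor gene Psmd4 (0.51), whose promoter is printed above, rose too. Of the ATPases, Psmc1 (0.6) and Psmc3 (0.59) rose and 4 did not pass. The exons of Psmd13 overlap those of Sirt3 on the opposite strand. The base chaperones Psmd5 (-0.08), Psmd9 (-0.16) and Psmd10 (0.08) were not called.

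Both chains of the activator PA28 rose. Psme1 had 476, 692, 724 and 617 CPM in leptomeningeal macrophages and 296, 322, 327 and 334 CPM in microglia (0.97, SE 0.17, edgeR adjusted p = 1.6e-05). Psme2 had 186, 348, 362 and 282 CPM against 119, 102, 154 and 112 CPM (1.27, SE 0.24, edgeR adjusted p = 0.000313). Leptomeningeal replicate 1 was the lowest of its group for both, and still above every microglial library. The Psme1 and Psme2 genes lie 5911 bases apart on chromosome 14 (GENCODE vM21, GRCm38). Psme4, in contrast, had 55.5, 34, 45.3 and 53.2 CPM in leptomeningeal macrophages against 77.8 to 83.6 CPM in microglia, without overlap (-0.75, SE 0.16, edgeR adjusted p = 0.000276). Psme3 (0.16), Psme2b (0.51) and Psmf1 (0.47) were not called.

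The split depended on the scaling. With plain library sizes the median of all genes fell to -0.34, 12.4% of all genes were higher and 31.5% lower, and the members split into 9 higher and 4 lower. The members' median lay 0.48 above that of all genes under TMM, RLE, DESeq2's size factors and plain library sizes alike. Psma7, Psmb1, Psmb2, Psmb4, Psmb6, Psmb10, Psmd8, Psme1 and Psme2 were called higher, and Psme4 lower, in each of the 9 alternative fits. Psma5 was lost without any 1 of the 8 libraries, by DESeq2 and with the replicate block (edgeR adjusted p = 0.0566), Psma6 without microglia replicate 1 or 4 or leptomeningeal replicate 2, and Psmd13 without replicate 1 or 2 of microglia or 2 or 3 of leptomeningeal macrophages. Psmd14 was lost without the same 4 libraries and without microglia replicate 4. Markers of other cells moved with the comparison. The 3 neutrophil markers summed to 734 to 1680 CPM in leptomeningeal libraries against 8.41 to 50.3 in microglia, the 4 monocyte markers to 611 to 884 against 54.8 to 89.4, and the 7 T and NK cell markers to 227 to 454 against 72.2 to 73.7. The 2 oligodendrocyte markers in the table summed to 89.2 to 114 CPM against 37.8 to 53 CPM. Ribosomal protein transcripts made up 12.5% to 13.3% of counts against 5.94% to 6.6%. Their part in the result was not tested.

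In cells without the label, HSC-derived leptomeningeal macrophages against HSC-derived microglia, 0 of 42 members were called by edgeR. Among all genes 5.75% were higher and 3.97% lower. An unadjusted edgeR p under 0.05 was found for 3 members and for 2336 of all 10597 genes. DESeq2 and limma-voom called 0 members as well. The median log2 change was 0.18 over the members and -0.06 over all genes. Psme1 had 557 and 763 CPM in the leptomeningeal libraries, and 390, 375, 671 and 481 CPM in microglia (log2 change 0.46, 95% interval 0.04 to 0.89, edgeR adjusted p = 0.19). Psme4 had a log2 change of -0.57 (edgeR adjusted p = 0.257). Without the shallow libraries 1 leptomeningeal library remained, whose spread was taken from the other groups. That fit called 0 members, against 13.4% of all genes, with a median of 0.33, and gives no replicate check. Without HSC-derived microglia replicate 1 or 3, 1 member was called. Over all genes, leaving out 1 library left 366 to 1242 called in this comparison. Markers of other cells differed: the T and NK cell markers summed to 154 to 246 CPM in leptomeningeal libraries against 0 to 88 in microglia. The monocyte markers summed to 316 to 545 against 97.8 to 133 CPM. Their part in the result was not tested.

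The test of the difference between the compartment effects, labelled minus unlabelled cells, called 0 members by edgeR, against 0.0566% of all genes. An unadjusted edgeR p under 0.05 was found for 7 members, all of them positive, and for 846 of all 10597 genes. DESeq2 called 1 member, against 0.462% of all genes, and limma-voom called 0 members. Psmb6 had the largest value, 1.11 (SE 0.3, edgeR adjusted p = 0.255). The higher proteasome transcripts of monocyte-derived leptomeningeal macrophages were therefore not shown to depend on the label.

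Among leptomeningeal macrophages, monocyte-derived against HSC-derived, 0 of 42 members were called by edgeR, DESeq2 or limma-voom, against 0.302% of all genes by edgeR. An unadjusted edgeR p under 0.05 was found for 3 members and for 1159 of all 10597 genes. The median was 0.02 over the members and 0.07 over all genes. Psmb7 had 95.6, 85.7, 84.2 and 78.1 CPM in monocyte-derived and 136 and 116 CPM in HSC-derived libraries, which did not overlap, but the difference failed the adjustment (-0.6, SE 0.22, edgeR adjusted p = 0.303). The neutrophil markers summed to 734 to 1680 CPM in monocyte-derived against 3.44 to 30.8 in HSC-derived libraries. The monocyte markers summed to 611 to 884 against 316 to 545 CPM. Their part in the result was not tested.

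The inducible subunits Psmb8 and Psmb9, which the symbols rule left out, gave the partner values for the catalytic sites. Psmb8 had 323 ± 21.9 CPM in host microglia, 366 ± 23.5 in monocyte-derived and 571 ± 189 in HSC-derived microglia, 824 ± 140 in monocyte-derived and 972 ± 281 (n = 2) in HSC-derived leptomeningeal macrophages. Psmb8 rose between compartments in labelled cells (1.17, edgeR adjusted p = 3.46e-06) and in HSC-derived against host microglia (0.79, edgeR adjusted p = 0.00123). In unlabelled cells it was called higher between compartments (0.77, edgeR adjusted p = 0.0241), but the groups overlapped. The deeper leptomeningeal library had 773 CPM and the shallow one 1170 CPM, against 385 to 794 CPM in microglia. Psmb9 rose in labelled cells between compartments (0.87, edgeR adjusted p = 0.000166) and in HSC-derived against host microglia (0.97, edgeR adjusted p = 0.000125). In HSC-derived microglia the shallow pair was the highest for both genes. Psmb8 had 385 and 448 CPM in the deeper and 794 and 658 CPM in the shallow libraries, and Psmb9 had 225 and 290 against 430 and 368 CPM.

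The ratio of an inducible subunit to its constitutive partner within a library does not depend on the scaling between libraries. It is read here between libraries and not as a ratio of proteins, and no test was made on it. Psmb9 to Psmb6 was 0.773 to 0.989 in host microglia and 1.57 to 1.82 in monocyte-derived microglia, without overlap, and 1.6 to 2.1 in monocyte-derived leptomeningeal macrophages. Neither Psmb8 nor Psmb9 was called in monocyte-derived against host microglia. There Psmb9 had 218 ± 33.1 against 162 ± 14.7 CPM, and the denominator Psmb6, called lower, 131 ± 14.1 against 186 ± 12.4 CPM. Psmb8 to Psmb5 was 6.24 to 7.25 in host microglia, 6.69 to 9.21 in monocyte-derived microglia and 10.5 to 16.3 in monocyte-derived leptomeningeal macrophages, which overlapped neither. Psmb10 to Psmb7 was 3.45 to 4.34 in host microglia, 2.79 to 3.72 in monocyte-derived microglia and 3.6 to 5.68 in monocyte-derived leptomeningeal macrophages, so these groups overlapped. HSC-derived microglia stood at 1.08 to 1.55, 5.42 to 9.59 and 2.48 to 3.46 for the same 3 ratios.

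**Figure D4:**
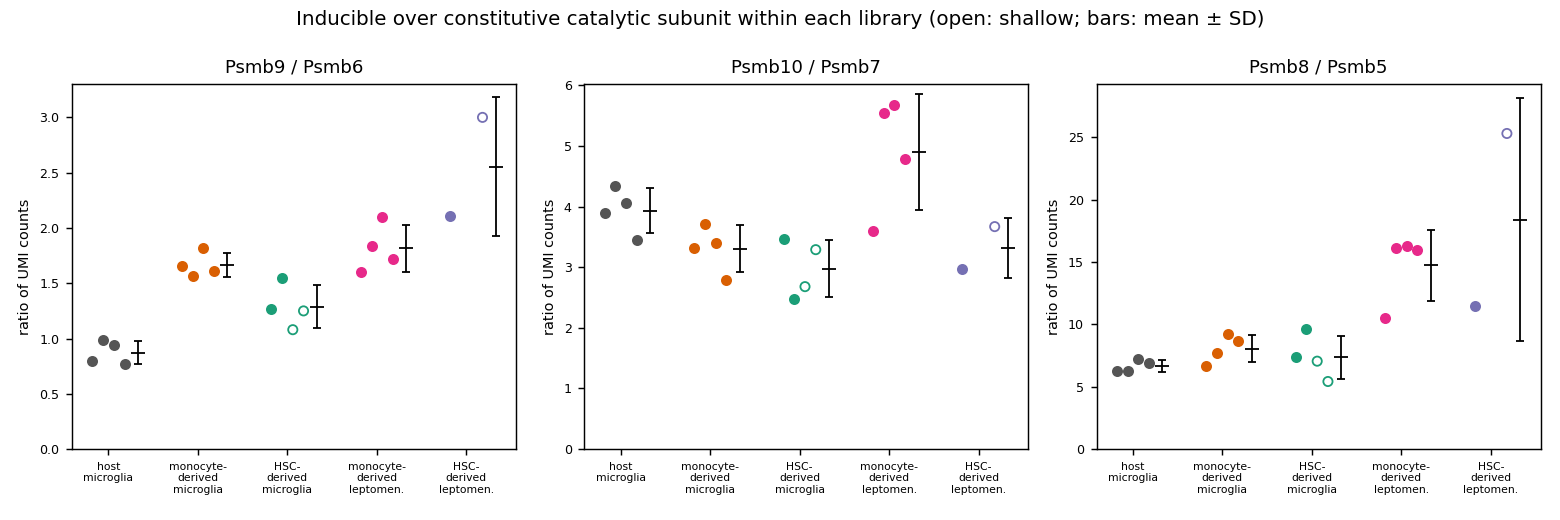
Ratio of UMI counts of an inducible catalytic subunit to its constitutive partner (y axes, from 0) in each library of the 5 groups; open circles are shallow libraries, and black bars show the mean ± SD. Psmb9 to Psmb6 separates host microglia (0.773 to 0.989) from every donor-derived library (1.08 and above), and Psmb8 to Psmb5 is highest in leptomeningeal macrophages (10.5 and above).

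Genes that assemble, serve or control the proteasome were read from 5 further lists. Of 5 chaperones of the core particle, 2 rose in monocyte-derived leptomeningeal macrophages against microglia, the maturation protein Pomp (0.73) and Psmg4 (1.07), and 0 fell, where 19.0% of all genes were higher. In HSC-derived against host microglia, where 16.3% of all genes were higher, 2 rose, Pomp by 0.46 and Psmg4 by 0.74. The shallow pair was the highest here too: Pomp had 200 and 223 CPM in the deeper HSC-derived libraries, the first within the host range of 165 to 216 CPM, and 338 and 297 CPM in the shallow ones. Psmg4 had 62.3 and 55 CPM in the deeper and 87.1 and 86.1 CPM in the shallow libraries. Pomp, which completes beta ring assembly, had 173, 170, 165 and 167 CPM in monocyte-derived microglia and 261, 270, 324 and 267 CPM in monocyte-derived leptomeningeal macrophages, without overlap. It was lower in monocyte-derived than in HSC-derived microglia (-0.59, edgeR adjusted p = 0.04).

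Of 15 tested partners of the complete proteasome, 2 rose and 0 fell in monocyte-derived leptomeningeal macrophages against microglia, a share below the 19.0% of all genes that were higher: Zfand5, a proteasome-stimulating zinc finger protein (1.01), and Ubxn1, a p97 cofactor (0.76). Against host microglia, Akirin2, which carries proteasomes into the nucleus, fell in monocyte-derived (-0.61) and HSC-derived microglia (-0.96), and the deubiquitinase gene Uchl5 rose in the former (0.5). Rad23b, a shuttle factor, fell in HSC-derived microglia (-1.14), to 3.91 to 9.92 CPM from 12.7 to 16.8 CPM in host. These levels are near the floor: a count of 3 was 15.4 and 11.7 CPM in the shallow HSC-derived microglia libraries. In HSC-derived cells, Zfand5 (1.11) and Ubxn1 (0.68) rose between compartments.

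Of 7 genes of transcriptional control, Nfe2l2, whose product NRF2 binds antioxidant elements, rose in both donor-derived microglia groups against host microglia, to 452 ± 22.2 and 481 ± 81.6 from 296 ± 29.5 CPM (0.61 and 0.7). Ddi2, the protease that activates NRF1, rose in monocyte-derived microglia (0.45). Nfe2l1, which encodes NRF1, had means of 50 to 66.4 CPM in all groups and was called in none of the 7 comparisons. Stat3 rose in monocyte-derived leptomeningeal macrophages against microglia (0.9). Of 9 ubiquitin and p97 genes, the polyubiquitin gene Ubb rose against host in monocyte-derived (0.84) and HSC-derived microglia (1.12), as did the activating enzyme gene Uba6 (1.5 and 1.45). Faf2 (-0.6) fell in HSC-derived against host microglia. Uba1 (0.91) rose between compartments in labelled cells.

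Genes of interferon-gamma signalling and peptide loading were called in both directions in monocyte-derived leptomeningeal macrophages against microglia, and no count over the list is given because not all of its genes are reported here. Irf1, a transcription factor that drives inducible subunit genes, had 216 ± 46.8 against 81.7 ± 11.5 CPM (1.4, edgeR adjusted p = 1.44e-08). Nlrc5 (0.86), Tap1 (0.66) and Tapbp (0.48) rose, while the receptor chains Ifngr1 (-0.48) and Ifngr2 (-1.83) and the transcription factor Irf8 (-0.51) fell. Ifngr2 had 3.29 to 17.2 CPM in these leptomeningeal libraries, where a count of 3 reached 3.29 CPM. In monocyte-derived against host microglia Nlrc5 rose (1.16) and Ifngr1 fell (-0.63). In HSC-derived against host microglia Nlrc5 (1.25) and B2m (0.82) rose, and Ifngr1 (-1.12), Ifngr2 (-1.16), Irf8 (-0.52) and Tapbp (-0.41) fell. Ifngr2 had 11.7 to 27.5 CPM in HSC-derived microglia, where a count of 3 reached 15.4 CPM. In HSC-derived cells between compartments Irf1 (1.03) and Tap1 (0.71) rose and Irf8 fell (-0.89).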

How the data were processed

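The deposited table holds UMI counts for each gene, all whole numbers, whose totals differ between libraries. Scaled versions in the same table were not used. The build is mm10, per the submitters' processing notes, and the aligner, the counting program and its use of strand were not given in the sources used here. Columns were matched to the labels by name, and 2 columns that matched no described sample were left out. The 18 libraries were compared in edgeR 4.0.16 (R 4.3.3, limma 3.58.1): filterByExpr by group, TMM, 1 robust quasi-likelihood fit with a coefficient per group, two-sided tests of 7 contrasts, and Benjamini-Hochberg adjustment over all 10597 tested genes with a threshold of 0.05. The fit was also run on simulated data made from these means and library sizes, with 200 changed genes. The simulation had the same dispersion for every gene and library, and only monocyte-derived against host microglia was read. Its outcome is not given here, and it does not cover the HSC-derived groups. Levels are CPM, as mean ± SD; library sizes are sums over tested genes. A count of 3 corresponded to between 1.05 and 23.1 CPM; with UMIs this covers counting error only. Within groups, no pair of libraries agreed within sampling noise (lowest chi-square per degree of freedom 1.39).

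The members and lists were chosen with earlier results of these data known. Always described were the catalytic subunits, Psmb10, the activators, Psmf1, Psmd14, Psmd4 and the base chaperones; in each comparison also every called member when 10 or fewer were called, otherwise the 6 with the smallest p in each direction, and further called members with their changes. Other genes came from the lists named in the text. Some genes of these lists are not reported here. Marker genes of other cell types were summed per library. Alternatives were DESeq2 1.42.0, RLE factors, plain library sizes, other filters, a fit of the compared groups alone, no shallow libraries, limma-voom with quality weights, a replicate block and leaving out each library. Gene positions and exon overlaps are from GENCODE vM21, and promoter windows from RefSeq (GRCm38.p6).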

Additional observations from a re-analysis of the deposited data

Results flagged for a closer look

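Within the groups of 4 libraries, 128 sets of values (31 genes and the summed level) were checked for a library far from the other 3, with a gap of more than 0.829 of the group's range. Chance flags about 1 in 20 groups, and 7 were found. In monocyte-derived microglia, Psma7 had 168 CPM in replicate 3 against 136 to 138 CPM in the others, and Psme3 27.1 CPM in replicate 1 against 30.1 to 30.6 CPM. In host microglia, Psmc3ip had 9.31 CPM in replicate 1 against 3.16 to 4.09 CPM, and Psmd14 65.0 CPM in replicate 4 against 47.2 to 49.5 CPM. In monocyte-derived leptomeningeal macrophages, Psmd8 had 152 CPM in replicate 3 against 127 to 129 CPM, and Psmd5 14.3 CPM in replicate 2 against 18.2 to 19.0 CPM. In HSC-derived microglia, Psmc5 had 159 CPM in the shallow replicate 3 against 59.5 to 74.4 CPM.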

How the results depend on the processing

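No member call made with all 18 libraries changed direction under the alternatives run. Psma7, called lower in HSC-derived against host microglia without the shallow libraries (-0.41), had 0.02 with them. The replicate numbers showed no common pairing. In 32 same-numbered pairs, deviations from the group means correlated at -0.32 to 0.32 (median 0), and 1 pair was over 0.1. The median over 96 differently numbered pairs was also 0. HSC-derived leptomeningeal macrophages had 2 libraries, whose deviations mirror each other. Their replicate 1 correlated at 0.32 with HSC-derived microglia replicate 1 and also with replicate 2. Whether same-numbered libraries share a mouse cannot be decided from these values. With the replicate block, 10, 4, 2, 0, 18, 0 and 0 members were called in the 7 comparisons (monocyte-derived against host microglia, HSC-derived against host microglia, monocyte-derived against HSC-derived microglia, monocyte-derived against HSC-derived leptomeningeal macrophages, compartment in labelled cells, compartment in unlabelled cells, interaction). Counts over all genes with the block are not given here, so these member counts have no share beside them. Without each library in turn, the counts in that order ran from 4 to 7, 4 to 7, 1 to 7, 0 to 0, 15 to 21, 0 to 1 and 0 to 0. Over all genes, 2587 to 2864 were called for monocyte-derived and 2612 to 2902 for HSC-derived against host microglia. For compartment in labelled cells it was 3137 to 3751, and the other comparisons are given below. For HSC-derived against host microglia, plain library sizes gave 9 members, against 35.3% of all genes, in place of 5 against 29.4%. In the same comparison limma-voom gave 8 members, for which no share over all genes is given here. For monocyte-derived against HSC-derived microglia, DESeq2 gave 6 members, the fit of these groups alone 0, the fit without the shallow libraries 0 and the replicate block 2, in place of 1. DESeq2 gave 1 in the interaction. With plain library sizes the summed level was 4960 CPM in host microglia, 4140 in monocyte-derived microglia and 4630 in HSC-derived leptomeningeal macrophages.

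Over all genes, the count for monocyte-derived against HSC-derived microglia (200) was 552 by DESeq2, 124 with plain library sizes, 20 with these groups alone, 50 without the shallow libraries and 88 by limma-voom. Between the leptomeningeal groups (32) it was 70, 16, 72 and 18 by DESeq2, these groups alone, without the shallow libraries and by limma-voom. With the compared groups alone it was 2068 for HSC-derived against host microglia (3114) and 205 for compartment in unlabelled cells (1030). For the interaction (6) it was 49 by DESeq2, and 1 both with plain library sizes and with these groups alone. Leaving out 1 library moved these counts to between 31 and 555, 12 and 90, 366 and 1242, and 0 and 40 for the comparisons of donor-derived microglia, of leptomeningeal groups, of compartment in unlabelled cells and the interaction. The causes were not tested. The 3 shallow libraries limit what depth can show in HSC-derived cells, where a count of 3 reached 23.1 CPM.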
